A study of Mus musculus with 64 samples.

Results

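The Hox genes are the 39 protein-coding genes that the authors' gene table names Hoxa, Hoxb, Hoxc or Hoxd followed by a number, out of 55385 genes counted. They were taken by name, and the rule uses no measured value. Hox genes encode homeodomain transcription factors and lie in 4 chromosomal clusters, on chromosomes 6 (Hoxa), 11 (Hoxb), 15 (Hoxc) and 2 (Hoxd) in the mouse. Within a cluster the genes are ordered by paralog group, and low-numbered groups act toward the head of the embryo and high-numbered groups toward the tail, so that the set in use marks the level along the body axis. Mammary glands of the mouse form along a line from the neck to the groin and keep some of this code in the adult. Here paralog groups 1 to 3 are called anterior (8 genes), 4 to 8 central (15 genes) and 9 to 13 posterior (16 genes).

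RNA was sequenced from 8 primary mammary tumors of 4 female PyMT mice, which carry the polyoma middle T antigen under a mammary promoter and form tumors in many glands. Each mouse was the only one of its genotype and gave 2 tumors. The homozygous KO was G174 (Abi1 fl/fl, Cre+, tumors 1 and 6) and its control G184 (fl/fl, Cre−, tumors 9 and 6). The heterozygous KO was G164 (fl/wt, Cre+, tumors 3 and 6) and its control G144 (fl/wt, Cre−, tumors 8 and 6). All 4 mice carried PyMT and at least 1 floxed Abi1 allele, and Cre was driven by the MMTV promoter, which is active mainly in mammary epithelium, so other cells of a tumor keep Abi1. By the study's records G164 and G184 were older than G174 and G144, so that KO and control differed in age in both pairs, in opposite directions. The labels give a tumor number but not the gland a tumor came from, so a tumor number is used here only as a name.

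Each tumor had between 50346075 and 69264893 counts over all genes. Abi1 followed the labels, with 8.93 and 6.47 CPM (the count scaled to a fixed library size) in the tumors of G174, against 122 and 114 CPM in those of G184, and with 63.1 and 66.7 CPM in G164, against 130 and 111 CPM in G144. The luminal markers Krt8, Krt18, Krt19, Epcam, Elf5 and Cldn3 were detected in every tumor, with a summed level of 3189 to 4012 CPM. CPM values are scaled by the TMM method of edgeR throughout. With 1 mouse per genotype, mouse and genotype cannot be told apart, and p-values measure the spread between the tumors of a mouse. In bulk tumors, fewer cells of a type and less RNA per cell cannot be told apart either.

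Central genes and the Hoxb genes next to them made up most of the Hox RNA. Of the 39 genes, 36 had at least 1 count in at least 1 tumor and 21 passed the filter on low counts: 3 of 8 anterior, 12 of 15 central and 6 of 16 posterior genes. Per kilobase of exon that the counting could assign to the gene alone, Hoxb4 had the highest mean level, with 2.42 CPM per kb (0.368 to 6.30 over the 8 tumors). Hoxb2 followed with 1.87 CPM per kb (0.249 to 5.48) and Hoxb3 with 1.49 CPM per kb (0.254 to 4.57), and the ranges of these 3 genes overlapped. Hoxd8 came next at 0.643 CPM per kb (0.462 to 0.745). The most abundant Hoxc gene was Hoxc6, at 0.279 CPM per kb (0.188 to 0.454), and the most abundant Hoxa gene was Hoxa5, at 0.141 CPM per kb (0.0649 to 0.267). Among posterior genes Hoxd9 was highest, at 0.126 CPM per kb (0.0775 to 0.205). All of these are low levels, and outside Hoxb2, Hoxb3 and Hoxb4 the highest count of any Hox gene in a tumor was that of Hoxb5 in tumor 6 of G144.

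**Figure D1:**
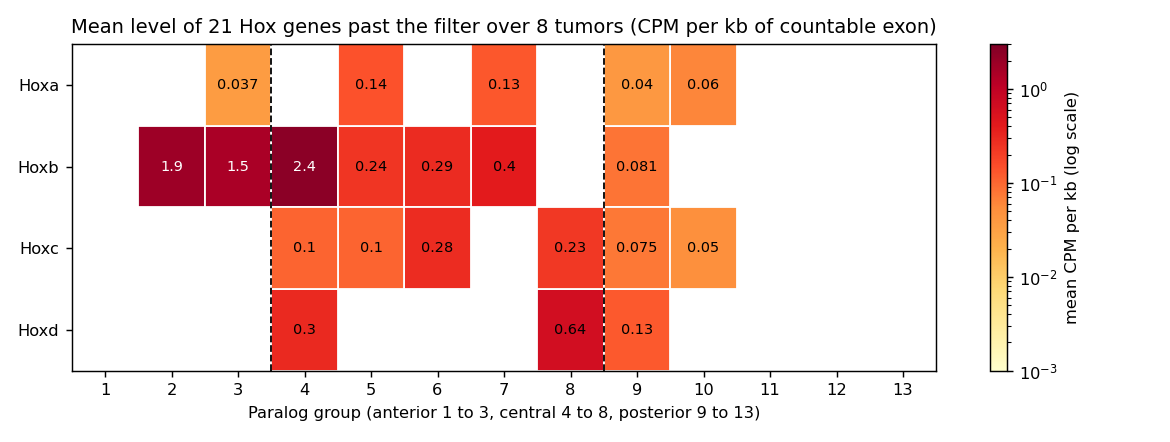
Map of the mean level of the 21 Hox genes past the filter over 8 tumors, with clusters as rows and paralog groups as columns. Each cell gives the mean CPM per kb of countable exon, with color on a log scale, empty cells where no gene is shown and dashed lines between the anterior, central and posterior classes. Hoxb4, Hoxb2 and Hoxb3 stand highest, at 2.42, 1.87 and 1.49 CPM per kb.

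The far posterior end was nearly silent. Hoxa13, Hoxb13 and Hoxd12 had 0 counts in all 8 tumors together, out of 504178222 counts, which allows a level of up to 0.00596 CPM over the 8 libraries. Hoxc12 had 1 count in all, Hoxd11 and Hoxd13 had 2 each, Hoxa11 had 5, Hoxc11 had 6 and Hoxc13, a gene known in the mouse for its part in hair formation, had 10. These limits and all intervals given here cover counting error only. Other genes under the filter were Hoxd1, Hoxd3, Hoxb1, Hoxa2, Hoxd10, Hoxa6, Hoxa4 and Hoxb8, with totals of 4 to 52 counts. Hoxb1 had 14 counts in all, although it is the next gene on the chromosome after Hoxb2, which had 3349. Only 37.7% of the exon length of Hoxd3 and 47.7% of that of Hoxd4 can be counted, because these genes share exons, and the values of both are therefore uncertain.

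Neighboring genes of the Hoxb cluster, Hoxb2 to Hoxb5, differed widely between tumors, and their high and low tumors were alike. These genes were chosen for a fuller account after their values were seen, except Hoxb2 and Hoxb4, which the naming rule gave as the most abundant genes of their class. Hoxb2 is known in the mouse for patterning the hindbrain. Its level was 0.868 and 1.05 CPM in tumors 1 and 6 of G174, against 16.1 and 3.98 CPM in tumors 9 and 6 of G184. In the heterozygous pair it was 1.91 and 5.26 CPM in tumors 3 and 6 of G164, against 3.94 and 19.1 CPM in tumors 8 and 6 of G144. The highest and lowest tumor differed 22.0-fold, and the highest tumors were tumor 9 of G184 and tumor 6 of G144.

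Hoxb3, a hindbrain and neck gene in the mouse embryo, had 1.08 and 1.25 CPM in G174, against 19.4 and 3.91 CPM in G184 (tumor 6 last in each pair). It had 1.89 and 5.16 CPM in G164, against 2.49 and 15.4 CPM in G144. Hoxb4, known also for its role in blood stem cells, had 0.945 and 2.12 CPM in G174, against 16.2 and 4.36 CPM in G184. It had 2.92 and 5.02 CPM in G164, against 2.40 and 15.7 CPM in G144. For each of these 3 genes the same 2 tumors were highest and both tumors of G174 were lowest. Hoxb5 followed at a lower level, with 0.0609 and 0.120 CPM in G174, against 1.09 and 0.183 CPM in G184, and with 0.343 and 0.481 CPM in G164, against 0.233 and 2.80 CPM in G144.

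**Figure D2:**
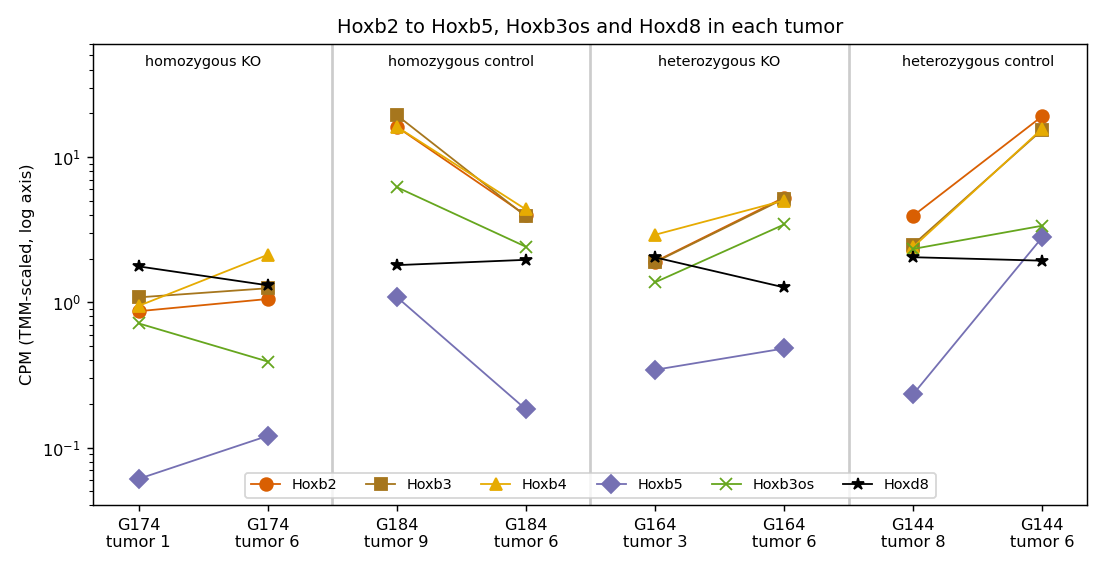
CPM (TMM-scaled, log axis) of Hoxb2, Hoxb3, Hoxb4, Hoxb5, the antisense transcript Hoxb3os and Hoxd8 in each of the 8 tumors, with a line joining the tumors of a mouse. Hoxb2 reaches 16.1 CPM in tumor 9 of G184 and 19.1 CPM in tumor 6 of G144 and lies at 0.868 to 5.26 CPM in the other 6 tumors, while Hoxd8 stays between 1.27 and 2.04 CPM.

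The noncoding genes between these Hoxb genes were likewise highest in tumor 9 of G184 or tumor 6 of G144. Hoxb3os, which is transcribed from the opposite strand over Hoxb2 and Hoxb3, had 0.716 and 0.391 CPM in G174, against 6.20 and 2.41 CPM in G184. It had 1.37 and 3.43 CPM in G164, against 2.33 and 3.37 CPM in G144. The counts used here are strand-specific, so reads of Hoxb3os are not reads of Hoxb2 or Hoxb3. Hoxb5os had 1 and 0 counts in G174, against 11 and 1 in G184, and 0 and 5 counts in G164, against 2 and 56 in G144. The hairpin of Mir10a, which lies just upstream of Hoxb4, had 0 and 2 counts in G174, against 14 and 2 in G184, and 0 and 8 counts in G164, against 0 and 14 in G144. Mir10b, the related gene of the Hoxd cluster, had 0 counts in all 8 tumors. These are reads of longer RNA over the hairpin, not measurements of the mature microRNA.

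The mature microRNAs that these hairpins give are shown because they share their seed (bases 2 to 8, in capitals) while only the hairpin in the Hoxb cluster was detected. The sequences are those of RefSeq for GRCm38.p6, at chr11:96317186-96317208 (miR-10a-5p) and chr2:74726074-74726096 (miR-10b-5p), both on the plus strand.
mmu-miR-10a-5p: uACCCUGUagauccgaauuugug
mmu-miR-10b-5p: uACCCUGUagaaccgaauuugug

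Hoxd8, a central gene of the Hoxd cluster, varied least of the 21 Hox genes past the filter. It had 1.77 and 1.31 CPM in G174, against 1.80 and 1.96 CPM in G184, and 2.04 and 1.27 CPM in G164, against 2.04 and 1.93 CPM in G144. Its highest and lowest tumor differed 1.61-fold, with 79 to 139 counts per tumor. Both tumors of G174 lay below both of G184, the tumors of G164 and G144 overlapped, and neither KO comparison passed edgeR's quasi-likelihood test (log2 fold change −0.29, standard error 0.29, adjusted p = 0.527 in homozygotes, and −0.27, standard error 0.29, adjusted p = 0.602 in heterozygotes). In heterozygotes the sign turned without tumor 6 of G164 (log2 fold change 0.04).

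The most abundant genes of the other clusters were steadier than Hoxb2 to Hoxb5. Hoxc6, a thoracic gene, had 0.533 and 0.452 CPM in G174, against 0.575 and 0.635 CPM in G184, and 0.724 and 0.866 CPM in G164, against 1.09 and 0.503 CPM in G144. Hoxa5, known in the mouse for its role in the lung, had 0.122 and 0.151 CPM in G174, against 0.435 and 0.141 CPM in G184, and 0.229 and 0.337 CPM in G164, against 0.502 and 0.198 CPM in G144. Hoxd9 had 0.183 and 0.166 CPM in G174, against 0.187 and 0.437 CPM in G184, and 0.362 and 0.289 CPM in G164, against 0.287 and 0.244 CPM in G144. For Hoxc6 and Hoxd9 both tumors of G174 lay below both tumors of G184, for Hoxa5 they overlapped, and none of these 3 genes was called in any comparison. Hoxc6 differed 2.42-fold between its highest and lowest tumor.

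The promoters of Hoxb4 and Hoxd8 are shown as those of a gene that varied 17.1-fold between tumors and of the gene that varied least. Each window runs from 250 bases before to 50 bases after the start of the gene in RefSeq (GRCm38.p6), at chr11:96318017-96318316 for Hoxb4 and chr2:74704365-74704664 for Hoxd8, both on the plus strand. CG pairs, at which DNA can be methylated, are in capitals.
Hoxb4: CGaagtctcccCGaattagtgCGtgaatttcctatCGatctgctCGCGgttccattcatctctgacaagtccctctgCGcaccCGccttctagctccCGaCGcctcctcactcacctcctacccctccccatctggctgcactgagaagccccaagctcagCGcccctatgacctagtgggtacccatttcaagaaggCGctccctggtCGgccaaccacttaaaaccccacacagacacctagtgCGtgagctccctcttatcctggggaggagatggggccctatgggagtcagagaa
Hoxd8: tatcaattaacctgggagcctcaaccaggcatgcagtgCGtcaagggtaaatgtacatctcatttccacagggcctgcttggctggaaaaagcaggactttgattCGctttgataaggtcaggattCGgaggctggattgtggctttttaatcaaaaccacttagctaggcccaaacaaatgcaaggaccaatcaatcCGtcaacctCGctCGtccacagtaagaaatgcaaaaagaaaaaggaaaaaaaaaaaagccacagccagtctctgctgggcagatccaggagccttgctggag
The Hoxb4 window holds 14 CG pairs and the Hoxd8 window 6, against a median of 7 over 32851 promoter windows of the same length. Neither window holds TATAAA, the letters of a TATA box, or TGATNNAT, a site that HOX and PBX proteins can bind together, on either strand. Among all promoter windows, 13.6% hold the first and 8.85% the second, and among the 24 windows of 22 Hox genes 4 hold each. Promoter sequences of the other 17 Hox genes were not used here.

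Between the tumors of a mouse, Hox genes differed by more than 2-fold more often than the tested genes at large, and most of the well-counted differences lay in the Hoxb cluster. Lanes and runs of a tumor are technical, so this comparison has 1 sample on each side and no test. Of the 21 Hox genes tested, 7 differed by more than 2-fold between tumors 1 and 6 of G174, where 11.7% of the 22187 genes tested did so. In G184 it was 11 Hox genes between tumors 9 and 6 (9.33% of all genes), in G164 it was 5 between tumors 3 and 6 (7.15%) and in G144 it was 13 between tumors 8 and 6 (8.54%). Hoxc10 is counted among those of G184, G164 and G144. It passed the filter through tumor 9 of G184 and tumor 6 of G164 alone, so its place in those 2 counts was set by the filter. In G144 it had 0 counts in tumor 8 and 1 in tumor 6. Genes with few counts pass 2-fold more easily. Among Hox genes with a mean of at least 1 CPM in the mouse the counts were 1 of 3 in G174, 3 of 4 in G184, 2 of 5 in G164 and 4 of 5 in G144, where 5.86%, 4.05%, 2.87% and 2.94% of all such genes did so. Only Hoxb2, Hoxb3, Hoxb4, Hoxb5, Hoxb9, Hoxc10, Hoxa3 and Hoxa10 had an exact 95% interval past 2-fold in any mouse, none of them in G174.

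The direction differed between mice, and in G184 and G144 it was shared by Hoxb2 to Hoxb5 beyond counting error. In G184, tumor 9 exceeded tumor 6 by log2 ratios of 2.02 (Hoxb2, 95% interval 1.83 to 2.21), 2.31 (Hoxb3, 2.12 to 2.51), 1.89 (Hoxb4, 1.71 to 2.08) and 2.52 (Hoxb5, 1.70 to 3.55). In G144, tumor 8 lay below tumor 6, with log2 ratios of −2.27 (Hoxb2, −2.49 to −2.07), −2.62 (Hoxb3, −2.89 to −2.37), −2.70 (Hoxb4, −2.98 to −2.45) and −3.54 (Hoxb5, −4.52 to −2.78). Tumor 3 of G164 also lay below its tumor 6, by −1.46 for Hoxb2, −1.45 for Hoxb3 and −0.78 for Hoxb4. For Hoxb5 the ratio there was −0.47, with an interval of −1.42 to 0.40 that includes no difference. In G174, both tumors were low, and only Hoxb4 passed 2-fold (−1.16, −1.62 to −0.73). The intervals of Hoxb2, Hoxb3 and Hoxb5 in G174 include no difference. Going on to Hoxb6 and Hoxb7 the ratios became smaller, at 0.77 and 0.44 in G184 and at −1.41 and −0.47 in G144. Beyond counting error, tumor 6 was thus the higher tumor for Hoxb2 in G164 and G144 and the lower one in G184.

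**Figure D3:**
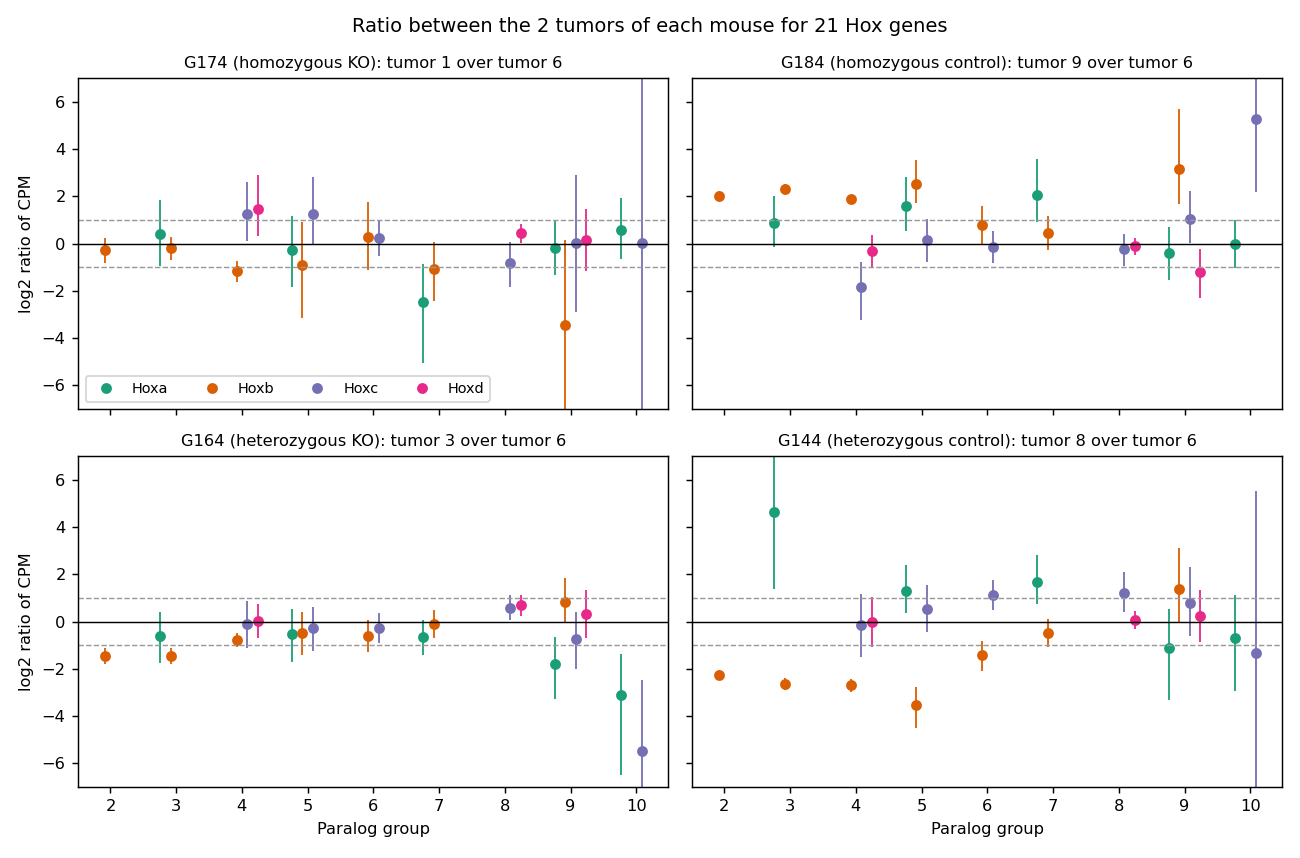
Log2 ratio of CPM between the tumors of each mouse (other tumor over tumor 6) for the 21 Hox genes past the filter, by paralog group and with colors for the clusters. Bars are exact 95% intervals for counting error and run off the axis where a tumor has 0 counts, and dashed lines mark 2-fold. Hoxb2 to Hoxb5 lie at 1.89 to 2.52 in G184 and at −3.54 to −2.27 in G144.

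Several other Hox genes did not follow that Hoxb stretch in every mouse. In G144, Hoxa7, a central gene, had 0.610 CPM in tumor 8 and 0.183 CPM in tumor 6, and Hoxa3 had 10 counts in tumor 8 and 0 in tumor 6 (the exact 95% interval of the log2 ratio begins at 1.40). Both are the reverse of Hoxb2 in the same tumors. In the other mice, tumor 6 last, Hoxa3 had 12 and 9 counts in G174, 22 and 13 in G184 and 13 and 24 in G164. Hoxb9, the posterior end of the expressed Hoxb genes and one of the paralog group 9 genes that the mouse mammary gland needs in pregnancy, had 28 counts in tumor 9 and 3 in tumor 6 of G184 (log2 ratio 3.16, 95% interval 1.67 to 5.72). In G144 it had 14 counts in tumor 8 and 6 in tumor 6, the other way round from Hoxb2. The exact 95% interval of that log2 ratio, −0.01 to 3.12, includes no difference. In G164 Hoxb9 had 26 counts in tumor 3 and 17 in tumor 6. In G174 it had 0 counts in tumor 1 and 5 in tumor 6, the largest ratio of that mouse by the values with a pseudocount. Its exact 95% interval there includes no difference.

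Hoxc10, which acts at the lumbar and hindlimb level of the mouse embryo, was detected in 3 of the 8 tumors, and in 2 of them with more than 1 count. It had 0 and 0 counts in G174, against 17 in tumor 9 and 0 in tumor 6 of G184. In the heterozygous pair it had 0 counts in tumor 3 and 26 in tumor 6 of G164, against 0 in tumor 8 and 1 in tumor 6 of G144. It passed the filter through tumor 9 of G184 and tumor 6 of G164 alone. The exact 95% interval of the log2 ratio of tumor 9 to tumor 6 begins at 2.18 in G184, and that of tumor 3 to tumor 6 ends at −2.47 in G164. In G164, Hoxa10 of the same paralog group moved alike, with 0.0381 CPM (2 counts) in tumor 3 and 0.401 CPM (25 counts) in tumor 6 (log2 ratio −3.10, 95% interval −6.52 to −1.39). In G184 it did not, with 0.280 CPM in tumor 9 and 0.282 CPM in tumor 6. The 4 tumors numbered 6 had 0, 0, 26 and 1 counts of Hoxc10 in G174, G184, G164 and G144. Hoxc5 and Hoxc10 share a stretch of exon, which the counting leaves out.

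Markers of other tissues also differed between the tumors of a mouse. The 6 skeletal muscle markers (Acta1, Ckm, Myh4, Myh2, Mylpf and Tnnt3) summed to 266 CPM in tumor 3 of G164 and 217 CPM in tumor 8 of G144, and to 1.17 to 2.97 CPM in the other 6 tumors. The 6 markers of keratinizing epidermis summed to 165 CPM in tumor 3 and 57.2 CPM in tumor 6 of G164, and to 2.19 to 6.31 CPM elsewhere. In tumor 6 of G164, where Hoxc10 was highest, B cell markers summed to 29.0 CPM, against 0.229 to 2.99 CPM elsewhere, and adipocyte markers to 67.8 CPM, against 8.34 to 34.3 CPM elsewhere. Basal epithelial markers summed to 693 CPM in tumor 9 of G184, 300 CPM in tumor 6 of G144 and 117 to 563 CPM in the other tumors, so the tumors high in Hoxb2 to Hoxb4 were not alike in them. Macrophage markers summed to 275 and 98.3 CPM in those same tumors, which were the highest and the lowest of the 8. Myh4 in the muscle list and Ivl, Flg, Krtdap in the epidermis list were at 0 in at least 1 tumor, and every other marker in the 11 lists was detected in all 8. The part of these tissues in the Hox values was not tested.

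The balance of anterior and posterior genes moved with Hoxb2, Hoxb3 and Hoxb4. Together they had 2.89 and 4.43 CPM in G174, against 51.7 and 12.2 CPM in G184, and 6.71 and 15.4 CPM in G164, against 8.84 and 50.2 CPM in G144, a 17.9-fold range over the tumors. The other 36 Hox genes together had 5.41 and 5.03 CPM in G174, against 9.68 and 7.73 CPM in G184, and 9.93 and 11.2 CPM in G164, against 9.30 and 10.2 CPM in G144. Their range was 2.23-fold, with both tumors of G174 lowest. Hoxb2, Hoxb3 and Hoxb4 took 34.9% to 84.2% of the Hox counts of a tumor.

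The posterior share of Hox counts was 8.26% (exact 95% interval 6.09% to 10.9%) and 8.28% (6.25% to 10.7%) in tumors 1 and 6 of G174, against 3.01% (2.50% to 3.59%) and 6.28% (5.08% to 7.68%) in tumors 9 and 6 of G184. It was 7.56% (5.89% to 9.52%) and 9.09% (7.75% to 10.6%) in tumors 3 and 6 of G164, against 6.13% (4.73% to 7.79%) and 1.44% (1.09% to 1.86%) in tumors 8 and 6 of G144. The means were 8.27 ± 0.017% in G174, against 4.65 ± 2.31% in G184, and 8.32 ± 1.08% in G164, against 3.78 ± 3.32% in G144 (SD, n = 2 tumors each). Both KO mice thus lay above both tumors of their control, and no test was run on this share. The order turned in the homozygous pair, and not in the heterozygous pair, with Hoxb2, Hoxb3 and Hoxb4 left out, an alternative chosen after seeing the data: the share was then 12.7% and 15.6% in G174, against 19.1% and 16.2% in G184, and 12.7% and 21.6% in G164, against 11.9% and 8.49% in G144.

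In absolute level, the posterior genes summed to 0.686 and 0.783 CPM in G174, against 1.85 and 1.26 CPM in G184, and to 1.26 and 2.42 CPM in G164, against 1.11 and 0.868 CPM in G144. The anterior genes summed to 2.56 and 2.63 CPM in G174, against 36 and 8.31 CPM in G184, and to 4.27 and 10.9 CPM in G164, against 6.99 and 34.7 CPM in G144. So the smaller posterior share of tumor 9 of G184 went with the second highest posterior level of all tumors, and the higher share in G174 with the lowest. Tumor 6 of G144 had the lowest share on either count and the third lowest posterior level.

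**Figure D4:**
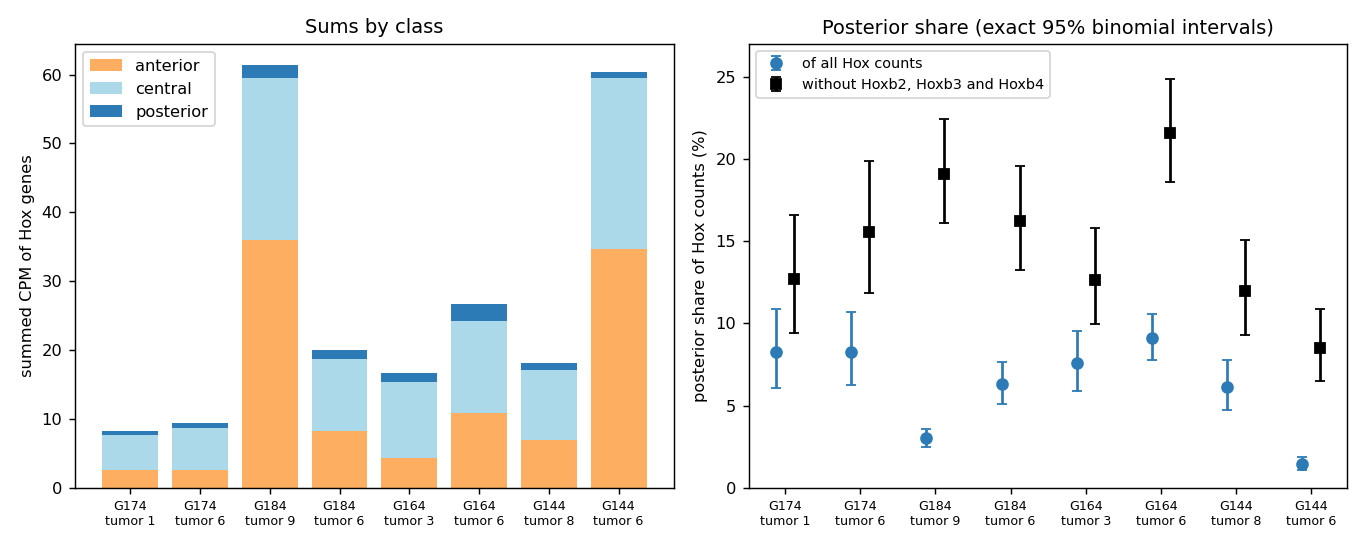
Left, summed CPM of anterior, central and posterior Hox genes in each tumor, as stacked bars. Right, the posterior share of Hox counts in percent, of all Hox counts (circles) and without Hoxb2, Hoxb3 and Hoxb4 (squares), with exact 95% binomial intervals. Tumor 9 of G184 moves from 3.01% to 19.1% when these 3 genes are left out, and tumor 6 of G144 stays lowest, at 1.44% and 8.49%.

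Between mice, few Hox genes passed the test. Counts were compared by edgeR's quasi-likelihood test over all 8 tumors, adjusted over 22187 genes after Benjamini and Hochberg, and a gene was called at an adjusted p under 0.05. For any difference among the 4 mice, 0 of 21 Hox genes were called, against 11.4% of all genes, with 5 at an unadjusted p under 0.05 (32.2% of all genes) and 3 called by DESeq2 (26.0%). Without the filter on low counts edgeR called 9 of 36 Hox genes, against 15.0% of all genes. Hoxb7 and Hoxb6 came nearest by edgeR (adjusted p = 0.0594 and 0.0766). Hoxb7 had 0.137 and 0.301 CPM in G174, against 0.575 and 0.423 CPM in G184, and 0.858 and 0.914 CPM in G164, against 0.699 and 0.975 CPM in G144. The spread between the tumors of a mouse was wide, with a median SD of 0.76 on the log2 scale for the 21 Hox genes and 0.23 for all genes. Genes with few counts have a larger SD, and most Hox genes have few. Among genes within 1.5-fold of its mean count, the SD of a Hox gene stood between percentile 44.5 (Hoxd9) and 99.2 (Hoxc10). Hoxb2 stood at percentile 97.7 and Hoxd8 at 49.7. Counting error alone gives an SD of 0.12 for Hoxb2, whose SD was 1.20, and of 0.52 for Hoxc9, whose SD was 0.53.

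The fitted Hox levels of G174 lay below those of its control G184, although few passed the test. All 21 Hox genes tested had a fitted log2 fold change below 0, where 50.1% of all genes did, and the median was −1.06, against −0.00 for all genes. Among all 39 genes the mean CPM was lower in G174 for 26, higher for 9 and equal for 4. Genes of a cluster vary together and share the tumors compared, so these are not independent counts. Without tumor 9 of G184 the median was −0.69, with 20 of 25 genes below 0. Hoxc10, at 0 in G174, passed the filter through a tumor each of G184 and G164, so its sign here was set by the filter. With Hoxc10 set to the limit of 3 counts over the group, 5.53-fold lower, the median stayed at −1.06. The medians of the anterior, central and posterior genes tested were −3.32, −0.98 and −1.66. Markers of some other cell types were lower in G174 as well. T cell markers summed to 5.20 and 5.48 CPM in G174, against 18.2 and 19.7 CPM in G184. Macrophage markers summed to 104 and 112 CPM, against 275 and 196 CPM, and endothelial markers to 128 and 104 CPM, against 172 and 165 CPM. B cell and adipocyte markers were also lower in both tumors of G174. Fibroblast markers overlapped, at 2017 and 1045 CPM in G174, against 1520 and 1950 CPM in G184. The luminal, basal, muscle, epidermis and nerve markers overlapped too. The part of these cell types in the Hox values was not tested.

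Only Hoxc9 was called in this comparison by edgeR, 1 of 21 Hox genes against 13.1% of all genes, with 7 at an unadjusted p under 0.05 (31.6% of all genes) and 2 called by DESeq2 (20.6%). Hoxc9 is a posterior gene of the thoracic level. It had 0.0457 and 0.0452 CPM in G174, against 0.357 and 0.169 CPM in G184, from 3 and 3 counts in G174, against 23 and 12 in G184. The groups did not overlap, and G174 lay at −2.48 on the log2 scale relative to G184 (adjusted p = 0.0456 by edgeR, standard error 0.63). The call was lost in each of 8 fits with a tumor left out, with adjusted p values of 0.0504 to 0.218 and log2 fold changes of −2.89 to −1.85, and also by DESeq2 (adjusted p = 0.0733).

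Hoxb2, Hoxb3 and Hoxb4 showed larger differences in homozygotes but did not pass the edgeR test. Their levels in G174 lay below both tumors of G184, and the log2 fold changes were −3.38 for Hoxb2 (standard error 0.98, adjusted p = 0.0638 by edgeR), −3.32 for Hoxb3 (standard error 1.07, adjusted p = 0.0847) and −2.74 for Hoxb4 (standard error 0.99, adjusted p = 0.110). DESeq2 called Hoxb2 and Hoxb3 (adjusted p = 0.0108 and 0.0245). Without the filter on low counts edgeR called Hoxb2, Hoxb3 and Hoxb4 as well (adjusted p = 0.000212, 0.000591 and 0.00196), among 6 of 36 Hox genes, against 11.5% of all genes. Hoxb3os, from the list of noncoding genes in or beside the clusters, was called by edgeR (log2 fold change −2.95, standard error 0.64, adjusted p = 0.0298) and kept its call in 5 of 8 fits with a tumor left out (adjusted p up to 0.134). It was the only call among the 3 of 17 listed noncoding genes that could be tested, which were Hoxb3os, Hoxb5os and Mir10a, where 13.1% of all genes were called.

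**Figure D5:**
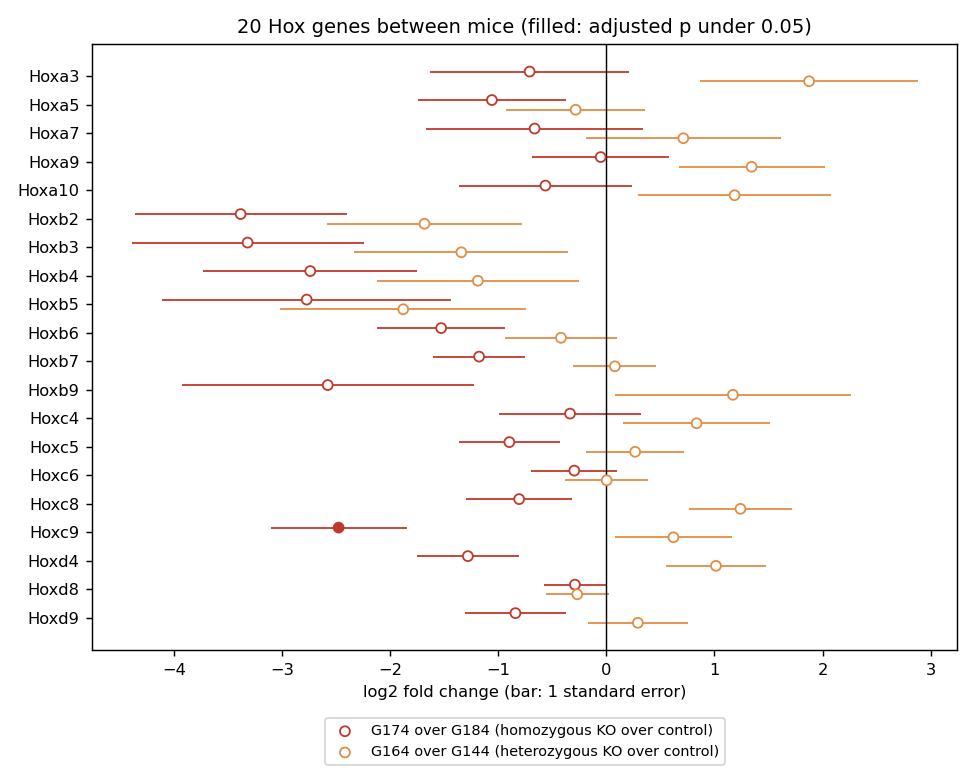
Log2 fold changes of 20 Hox genes past the filter for G174 over G184 and for G164 over G144, with bars of 1 standard error and filled points for an adjusted p under 0.05 by edgeR. Hoxc10 is left out because it was at 0 in G174 and its fitted fold change is no bound. Hoxc9 in homozygotes, at −2.48, is the filled point.

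In heterozygotes no Hox gene was called. By edgeR 0 of 21 passed, against 4.01% of all genes, with 1 at an unadjusted p under 0.05 (25.3% of all genes) and 0 called by DESeq2 (12.6%). The median log2 fold change was 0.29, against 0.02 for all genes, with 14 genes above 0 and 7 below. Without the filter on low counts, 19 of 36 Hox genes lay above 0 and 16 below (median 0.14). All 6 posterior genes tested lay above 0 (median 1.18), and among 3 anterior genes Hoxb2 and Hoxb3 lay below (log2 fold changes −1.68 and −1.34, adjusted p = 0.292 and 0.439 by edgeR). Hoxc10, 1 of the 6, passed the filter through a tumor each of G164 and G184, so its sign here was set by the filter. Without tumor 6 of G144 the log2 fold change became −0.15 for Hoxb2 and turned to 0.49 for Hoxb3 and to 0.71 for Hoxb4, which was at −1.19 with it. Hoxc8, which takes part in placing the mammary line in the mouse embryo, had 1.37 and 0.914 CPM in G164, against 0.681 and 0.290 CPM in G144 (log2 fold change 1.24, standard error 0.48, adjusted p = 0.169 by edgeR), without overlap.

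The homozygous and heterozygous changes differed for Hoxc9 and Hoxd4. By edgeR these were 2 of 21 Hox genes, against 25.1% of all genes, with 4 at an unadjusted p under 0.05 (40.0% of all genes) and 0 called by DESeq2 (29.3%). The homozygous change of all 21 genes lay below the heterozygous one, where 50.9% of all genes did, with a median difference of −1.40. Hoxc10, 1 of the 21, had 0 counts in G174 and passed the filter through a tumor each of G184 and G164. High counts in G184 and G164 make the difference negative, so its sign was set by the filter. Without the filter on low counts, 27 of 36 Hox genes lay below 0 and 9 above (median −1.17). Without tumor 9 of G184 the median was −1.04, with 20 genes below 0 and 5 above. For Hoxc9 the difference was −3.10 on the log2 scale (adjusted p = 0.0364 by edgeR, standard error 0.83), and in heterozygotes it had 0.191 and 0.321 CPM in G164, against 0.215 and 0.122 CPM in G144. Hoxd4, a central gene, had 0.350 and 0.120 CPM in G174, against 0.513 and 0.635 CPM in G184, and 0.591 and 0.577 CPM in G164, against 0.287 and 0.289 CPM in G144. Its difference was −2.29 (standard error 0.66, adjusted p = 0.0441 by edgeR), from changes of −1.28 (adjusted p = 0.114) and 1.01 (adjusted p = 0.230), and its groups did not overlap in either pair. The Hoxc9 call held in 1 and the Hoxd4 call in 1 of the 8 fits with a tumor left out, with adjusted p values up to 0.130 and 0.128. The same contrast sets G174 and G144 against the older mice G184 and G164, so the KO and age cannot be told apart in it.

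Between the control mice G184 and G144 no Hox gene was called. By edgeR 0 of 21 were called, against 12.6% of all genes, with 0 at an unadjusted p under 0.05 (31.6% of all genes) and 0 called by DESeq2 (20.2%). The median log2 fold change of G184 over G144 was 0.24, with 13 genes above 0 and 8 below. All 6 posterior genes tested, Hoxc10 among them, lay above 0 (median 0.79), as they did for G164 over G144. Hoxc10 passed the filter through a tumor each of G184 and G164, so its sign in both comparisons was set by the filter.

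Hox proteins bind DNA with cofactors of the TALE class, the PBX, MEIS and PKNOX proteins. All 9 of these genes were tested and none was called in either KO comparison, against 13.1% of all genes in homozygotes and 4.01% in heterozygotes. For the difference between the changes, 1 lay higher and 1 lower by edgeR, where 25.1% of all genes were called. Pbx4 had 1.42 and 1.54 CPM in G174, against 0.264 and 0.593 CPM in G184, and 0.762 and 0.642 CPM in G164, against 0.627 and 1.31 CPM in G144 (difference 2.25, adjusted p = 0.0473, called in 2 of 8 fits with a tumor left out). Pknox2 had 2.03 and 1.46 CPM in G174, against 3.70 and 2.23 CPM in G184, and 2.84 and 3.03 CPM in G164, against 1.65 and 2.0 CPM in G144 (difference −1.45, adjusted p = 0.0485, called in 1 of 8 such fits). Meis1, named here after its values were seen, differed between the tumors of a mouse, with 13.4 and 93.5 CPM in G174, against 4.38 and 14 CPM in G184, and 75.3 and 11.7 CPM in G164, against 16.7 and 16.1 CPM in G144. Its high tumors, tumor 6 of G174 and tumor 3 of G164, were not those high in Hoxb2.

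Limb-level genes were looked at as another mark of position. Tbx5, the forelimb gene, lay at 0.05 to 0.24 CPM, and the hindlimb genes Tbx4, Pitx1 and Isl1 did not pass the filter. The calls below stand beside 13.1% of all genes called in homozygotes and 25.1% for the difference between the changes. Of the 8 genes tested, Msx2 was lower in G174, with 1.30 and 1.55 CPM, against 4.83 and 3.20 CPM in G184 (log2 fold change −1.50, standard error 0.25, adjusted p = 0.0156 by edgeR), and none was higher. For the difference, Msx2 and Tbx2 lay lower (−1.20 and −2.63, adjusted p = 0.0464 and 0.0339), calls kept in 1 and 2 of 8 fits with a tumor left out, while Msx2 in homozygotes was called in 6. Of the 8 homeobox genes that flank the clusters or belong to the ParaHox group, only Pdx1 passed the filter and it was not called. It had 0 counts in both tumors of G174, against 1.31 and 0.48 CPM in G184, and 1.14 and 2.66 CPM in G164, against 3.33 and 0.12 CPM in G144.

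Polycomb proteins keep Hox genes silent, and Trithorax proteins keep them active. Over all genes, edgeR called 13.1% in homozygotes, 4.01% in heterozygotes, 12.6% between controls and 25.1% for the difference between the changes. Of 16 Polycomb genes, 2 rose and 1 fell in homozygotes by edgeR. Ezh2, the H3K27 methyltransferase, had 78.1 and 67.3 CPM in G174, against 44.4 and 53.4 CPM in G184 (log2 fold change 0.57, standard error 0.12, adjusted p = 0.0283). Suz12, its partner, had 186 and 170 CPM in G174, against 101 and 123 CPM in G184 (log2 fold change 0.67, standard error 0.14, adjusted p = 0.0277). Bmi1 fell (log2 fold change −0.33, adjusted p = 0.0454). In heterozygotes only Ezh2 was called and it fell, with 51.4 and 52.8 CPM in G164, against 85.0 and 84.6 CPM in G144 (log2 fold change −0.70, standard error 0.12, adjusted p = 0.0347). The control mice also differed, Ezh2 and Suz12 being lower in G184 than in G144 (log2 fold changes −0.80 and −0.61, adjusted p = 0.0122 and 0.0357) and Phc1 higher (0.72, adjusted p = 0.0361). For the difference between the changes, 3 lay higher (Ezh2 at 1.28, adjusted p = 0.00436, Suz12 at 1.06, adjusted p = 0.0123, and Cbx2 at 0.92, adjusted p = 0.0315) and Phc1 lay lower. With a tumor left out, the homozygous calls of Ezh2, Suz12 and Bmi1 were kept in 4, 5 and 0 of 8 fits, and the heterozygous call of Ezh2 in 4. Between controls Ezh2, Suz12 and Phc1 kept theirs in 5, 3 and 2, and for the difference Ezh2, Suz12, Cbx2 and Phc1 in 8, 7, 2 and 1. Of the 8 Trithorax and H3K27 demethylase genes none was called in a KO comparison, and Ash2l and Wdr5 lay higher for the difference (0.86 and 0.48, adjusted p = 0.0317 and 0.0447), calls kept in 2 and 1 of 8 fits with a tumor left out.

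Retinoic acid switches on the anterior Hox genes in the embryo, those of the Hoxb cluster among them. Of 11 genes of its synthesis, breakdown and response, only Crabp2, which carries retinoic acid to its receptors, was called in a KO comparison. The shares of all genes called were 13.1% in homozygotes, 4.01% in heterozygotes and 25.1% for the difference between the changes. Crabp2 was called in homozygotes. It had 7.36 and 16.2 CPM in G174, against 69.1 and 75.8 CPM in G184 (log2 fold change −2.62, standard error 0.57, adjusted p = 0.0301 by edgeR), and 45.1 and 83.0 CPM in G164, against 76.7 and 28.3 CPM in G144, with overlap in that pair. For the difference, Crabp2 and the receptor gene Rxra lay lower (−2.91 and −1.10, adjusted p = 0.0355 and 0.0440), each kept in 2 of 8 fits with a tumor left out. The homozygous call of Crabp2 was kept in 5.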

How the data were processed

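The authors sequenced RNA, after removal of ribosomal RNA, as stranded paired-end libraries and deposited raw counts of reads per gene, made with STAR on GRCm38/mm10 (tool versions: not given in the sources used here). There were 64 count tables, from 8 tumors in 2 runs of 4 lanes each. The deposited reverse-strand counts were summed per tumor over lanes and runs, which are technical. Rows that name no gene were left out of totals. Forward-strand counts were 4.76% to 6.80% of the total.

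Genes low in all mice were removed (filterByExpr by mouse), which left 22187 of 55385 genes and 99.96% of counts. Mice were compared with edgeR 4.0.16 (quasi-likelihood test, TMM scaling, R 4.3.3) over all 8 tumors, with Benjamini-Hochberg adjustment and a threshold of 0.05. DESeq2 1.42.0 was an alternative. This left 4 residual degrees of freedom, all from tumors of the same mouse. Ratios within a mouse used a pseudocount of 0.5 counts. Intervals are exact binomial 95% intervals (scipy 1.17.1). Levels per kb used exon length not shared with another gene. The fit was tested on simulated data.

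The members and the gene lists were chosen with earlier results of these data known. Values in every tumor are given for the most abundant Hox gene of each cluster and class, the gene with the largest ratio in each mouse and every gene called, and in the other lists for up to 3 genes with the smallest adjusted p. Other genes given so were chosen after their values were seen. Alternatives were other scalings, no filter, unstranded counts, each run alone, DESeq2, the compared mice alone and each tumor left out. Values of some single genes are not reported here.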

Additional observations from a re-analysis of the deposited data

Results flagged for a closer look

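The homozygous change (G174 against G184) and the heterozygous change (G164 against G144) differed by edgeR's quasi-likelihood test for 2 Hox genes. For Hoxc9 the difference was −3.10 on the log2 scale (adjusted p = 0.0364), and for Hoxd4 it was −2.29 (adjusted p = 0.0441). Hoxc9 had 3 to 23 counts per tumor and Hoxd4 had 8 to 45, and neither was called by DESeq2 (adjusted p = 0.0857 and 0.0643). Mouse age cannot be told apart from the KO in this contrast.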

How the results depend on the processing

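No paired analysis was possible because the mice share only the tumor number 6, so a replicate block could not be fitted. Causes of the changes below were not tested. The number of Hox genes called for any difference among the mice (0) became 9 of 36 with no filter on low counts (15.0% of all genes), 1 of 23 with unstranded counts (10.4%), 3 of 21 by DESeq2 (26.0%) and 0 to 1 with each tumor left out (1 without tumor 6 of G174 or tumor 8 of G144). In homozygotes (1) it became 6 of 36 with no filter (11.5%), 0 with unstranded counts, the later run alone or the compared mice alone, 2 by DESeq2 (20.6%) and 0 to 1 with each tumor left out, where the single call, without tumor 1 of G174, was Hoxd4 (adjusted p = 0.0413 by edgeR). For the difference between the changes, most fits with a tumor left out lost the calls of Hoxc9 and Hoxd4. Without tumor 8 of G144 neither was called, but Hoxc8 was (difference −2.78). The number called for that difference (2) became 5 of 36 with no filter (16.5%), 1 with unstranded counts or the later run alone and 0 by DESeq2 (29.3%). In heterozygotes and between controls it stayed at 0 under every alternative run.

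Hox genes past 2-fold within a mouse became 1 in G174, 3 in G184, 2 in G164 and 4 in G144 at a mean of at least 1 CPM, and 8 in both G164 and G144 with the later run alone. The posterior share of G174 (8.27%) became 10.9% with unstranded counts, 7.37% with the earlier and 9.15% with the later run alone, 7.38% per kb, 2.82% with paralog groups 10 to 13 alone and 14.1% without Hoxb2, Hoxb3 and Hoxb4. That of G184 (4.65%) became 7.20% unstranded, 1.39% with groups 10 to 13 and 17.7% without those 3 genes. That of G164 (8.32%) became 11.1%, 2.21% and 17.1% by the same changes, and that of G144 (3.78%) became 5.96%, 0.992% and 10.2%. In heterozygotes, leaving out each tumor moved the log2 fold change of Hoxb3 between −2.25 and 0.49 and of Hoxb4 between −1.98 and 0.71, both positive without tumor 6 of G144, and of Hoxd8 between −0.66 and 0.04, positive without tumor 6 of G164.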
